A study of Homo sapiens with 24 samples.

Results

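The genes described are 10 members of the BCL-2 family, the proteins that decide whether the mitochondrial outer membrane stays intact or is opened: the pro-survival genes BCL2L1 (BCL-xL), BCL2L2 (BCL-w), and MCL1, the effectors BAX and BAK1, and the BH3-only genes BID, BIK, BMF, PMAIP1 (NOXA), and BBC3 (PUMA). They were chosen by gene symbol for their role, with earlier results of these data known, and all 10 are rows of a read-count table of 14493 genes. All 10 were tested in every comparison, and their lowest count in any library was 59. RNA-seq was performed on 24 libraries of SKBr3 cells, an established HER2-amplified human breast cancer line also written SKBR3, in 8 groups of 3 replicates. Cells were exposed to ND-646, which inhibits acetyl-CoA carboxylase, or to TVB-3166, which inhibits fatty acid synthase, each at 250 nmol/L. These 2 groups are the fatty acid synthesis therapy-induced senescence (FASTIS) cells. The other therapy-induced senescence (TIS) groups received bleomycin at 10 μmol/L or doxorubicin at 10 nmol/L, which damage DNA, palbociclib (spelt Palboclib in the labels) at 1 μmol/L, which inhibits CDK4 and CDK6, or alisertib at 500 nmol/L, which inhibits Aurora kinase A. Drug was renewed on day 3 (refeed in the labels) and cells were collected on day 7 in all 6 TIS groups. The labels of untreated day-7 cells name no refeed. In comparisons with them, an effect of feeding cannot be told apart from an effect of the drug. Proliferative untreated cells (day-0) and untreated cells at day 7 (day-7) were the references, and all groups are of the same cell line with 1 dose and 1 time point per drug.

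In a living cell the pro-survival proteins hold the effectors and the BH3-only proteins in check. BH3-only proteins, many of which are induced by stress at the level of transcription, occupy the pro-survival proteins or engage the effectors directly, and freed BAX and BAK form pores that release cytochrome c. Senescent cells are known for a shifted balance within this family, which is what BH3 mimetic drugs exploit.

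Total counts per library ranged from 29405121 to 44316330. Of 7 luminal and HER2 markers 6 were in the table, and CDH1 was not. Those in the table were high in every group, with mean ERBB2 between 5688 and 8271 CPM (counts scaled to a common library total). Of 8 markers of leukocytes, endothelium, fibroblasts, and hepatocytes only COL1A1 was in the table, at group means of 7.62 to 12.3 CPM. KRT8, a luminal keratin, was lower in the TIS groups, at 2384 to 3468 CPM against 5484 CPM in day-0 and 4044 CPM in day-7 cells. With palbociclib it was not called against day-7 cells. All 3 cycling markers fell in both FASTIS groups, whereas with alisertib only TOP2A was called lower than in day-7 cells. MKI67 was at 34.3 CPM in ND-646 and 200.4 CPM in alisertib TIS cells, against 444 CPM in day-0 and 277 CPM in day-7 cells. The part of these markers in the results was not tested, and a change in every cell cannot be told apart from a change in some cells. ND-646 replicate 1 stood apart from replicates 2 and 3 of that group. It had the lowest normalization factor of all libraries (0.785) and ATF4 at 1111 CPM against 609 and 623 CPM. Calls printed here that change without it are therefore also given without it. Nothing in the labels says that the 3 replicates are separate cultures, and p-values therefore measure only the spread between these libraries.

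The largest changes were in BH3-only genes. BBC3, whose protein PUMA binds every pro-survival member, was highest in the FASTIS groups and rose 8.56-fold in ND-646 and 6.82-fold in TVB-3166 TIS cells over day-0 cells (edgeR quasi-likelihood test, adjusted p = 8.49e-05 and 2.33e-06, n = 3 per group). BMF, a BH3-only sensitizer linked to the cytoskeleton, rose in 5 of 6 TIS groups, from 3.91-fold with TVB-3166 to 8.57-fold with bleomycin. PMAIP1, whose protein NOXA mainly neutralizes MCL-1, rose in all 6 TIS groups, and BIK, an endoplasmic reticulum BH3-only protein, rose most with TVB-3166. BID, the BH3-only protein that caspase-8 cleaves, fell in 4 TIS groups. The pro-survival genes and the effectors moved by less than 2-fold in every comparison. The plot of CPM by library and the heat map of fold-changes show all 10 genes.

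**Figure D1:**
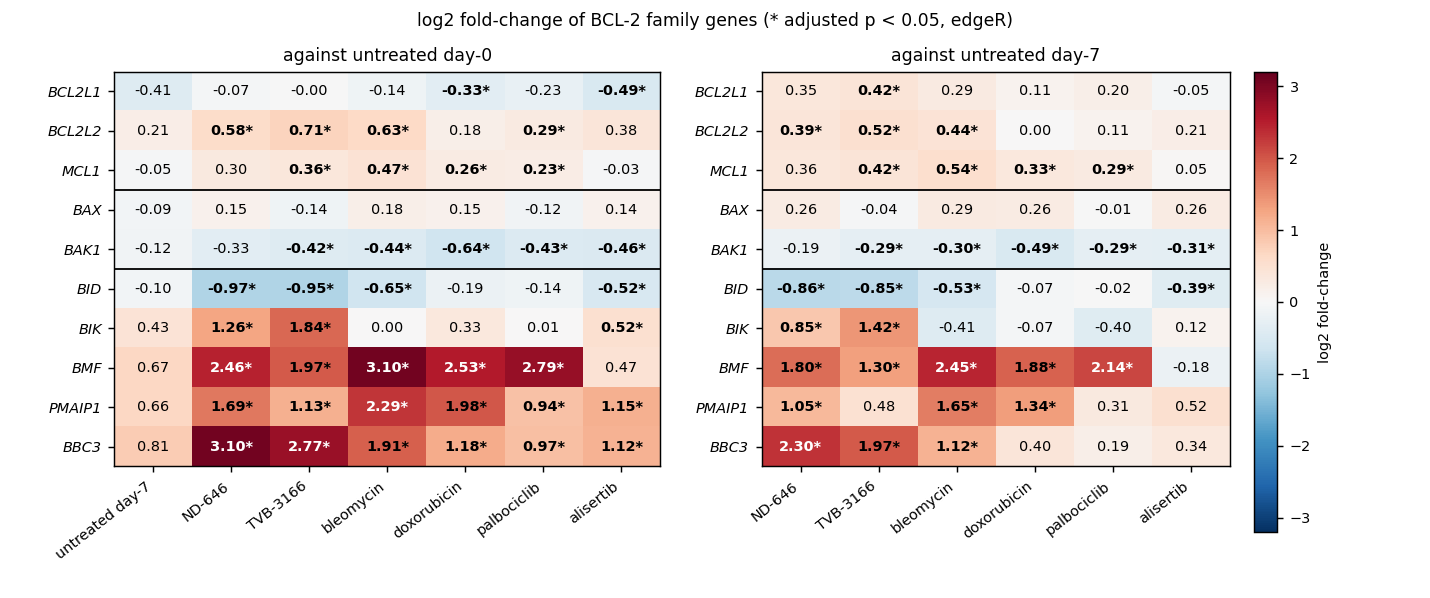
Log2 fold-change of each gene against day-0 cells (left, with untreated day-7 cells as the first column) and against day-7 cells (right). Colour gives direction and size, and asterisks mark adjusted p-values under 0.05 in edgeR. The BH3-only rows at the bottom hold the largest values, up to 3.10 for BMF in bleomycin TIS cells, and BID is the BH3-only gene with called values below 0.

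The promoter windows of the 3 genes with the largest range of group means are shown because their RNA levels moved the most: the 250 bases before each annotated start, 5′ to 3′ on the gene's strand, from RefSeq (GRCh38.p14). Capitals mark the searched motifs found. BMF has 2 annotated starts and both are given.
BBC3, chr19:47232668-47232917, minus strand: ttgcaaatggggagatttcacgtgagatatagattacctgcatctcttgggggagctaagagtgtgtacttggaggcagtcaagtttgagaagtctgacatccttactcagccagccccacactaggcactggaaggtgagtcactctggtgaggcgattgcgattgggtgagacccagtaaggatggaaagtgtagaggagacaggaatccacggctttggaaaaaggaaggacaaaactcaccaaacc
BMF start 1, chr15:40108880-40109129, minus strand: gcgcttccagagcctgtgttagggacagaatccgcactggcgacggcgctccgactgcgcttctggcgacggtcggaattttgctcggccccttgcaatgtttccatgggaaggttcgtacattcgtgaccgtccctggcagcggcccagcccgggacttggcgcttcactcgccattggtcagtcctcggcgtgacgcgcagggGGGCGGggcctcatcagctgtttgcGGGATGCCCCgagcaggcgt
BMF start 2, chr15:40106967-40107216, minus strand: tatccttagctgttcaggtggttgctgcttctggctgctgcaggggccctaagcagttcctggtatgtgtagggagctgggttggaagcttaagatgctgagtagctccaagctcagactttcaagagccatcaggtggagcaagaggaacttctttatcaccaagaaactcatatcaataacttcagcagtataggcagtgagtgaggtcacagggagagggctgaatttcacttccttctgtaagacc
PMAIP1, chr18:59899746-59899995, plus strand: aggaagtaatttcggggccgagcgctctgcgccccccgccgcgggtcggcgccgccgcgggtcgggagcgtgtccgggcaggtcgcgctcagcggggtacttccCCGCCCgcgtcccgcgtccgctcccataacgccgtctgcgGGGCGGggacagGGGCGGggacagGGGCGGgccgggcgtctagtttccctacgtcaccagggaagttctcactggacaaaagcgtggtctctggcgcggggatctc
Both strands were searched for TGACGTCA (a cyclic AMP response element), TGATGNAA (the core of a composite element of ATF4 and CHOP), TTTGGCGC and TTTCCCGC (E2F sites), GGGCGG (a GC box bound by SP1), an NF-kB site, and a p53 half-site. Of 35116 RefSeq windows of this length, these letters occur in 1.65%, 3.14%, 0.55%, 1.39%, 42.6%, 8.04%, and 5.57%, in that order. The PMAIP1 window holds GGGCGG at 4 places, and BMF start 1 holds it once, together with an NF-kB site 20 to 11 bases before the start. The windows of BBC3 and BMF start 2 hold none of the 7 motifs. Of the other members, BAK1 has GGGCGG at 2 places and a p53 half-site 73 to 64 bases before the start, which shares 1 base with a GGGCGG, and BAX and BID have GGGCGG. BCL2L1 has none. In all, 7 of the 10 genes have an entry, and MCL1, BCL2L2, and BIK have none.

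On GRCh37 the pro-survival genes lie at chr20:30252255-30311792 (BCL2L1, minus strand), chr14:23767999-23780960 (BCL2L2, plus strand), and chr1:150533371-150552214 (MCL1, minus strand). Per kilobase of annotated exon, BAK1 and MCL1 were the most abundant of the 10 in day-0 cells, at 50.0 and 37.8 CPM per kilobase, followed by BCL2L1 at 24. BID, BCL2L2, BAX, and BIK lay between 4.62 and 8.36, BMF was at 3.02, and PMAIP1 and BBC3 were the lowest at 1.04 and 0.789 CPM per kilobase. The order changed in the TIS groups. BMF reached 25.8 CPM per kilobase with bleomycin, above BCL2L1 at 21.7, and BBC3 reached 6.82 with ND-646, above BID at 4.31. MCL1 was above BAK1 in all 6 TIS groups and below it in both untreated groups. These levels depend on the exon length used, and they were not tested between genes.

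Among the pro-survival genes, MCL1 was highest in CPM. MCL-1 is a short-lived protein that restrains BAK. In day-0 cells MCL1 was at 228, 229, and 249 CPM and in day-7 cells at 209.9, 233, and 236 CPM. It was at 302, 342, and 334 CPM with bleomycin, at 282, 327, and 296 CPM with TVB-3166, and at 259, 317, and 301 CPM with ND-646. All libraries of these 3 TIS groups were above all untreated libraries. MCL1 rose against day-0 cells with bleomycin (log2 fold-change 0.47 ± 0.10 (SE), adjusted p = 0.00432), TVB-3166 (0.36 ± 0.10, 0.00779), doxorubicin (0.26, 0.0259), and palbociclib (0.23, 0.0486), and in the same 4 groups against day-7 cells (0.29 to 0.54). With ND-646 the difference was 0.30 (adjusted p = 0.137), and without replicate 1 it was 0.39 (adjusted p = 0.0103). Against day-7 cells MCL1 with ND-646 passed without replicate 1 (0.44, adjusted p = 0.00151). The doxorubicin call against day-0 cells was lost without any 1 doxorubicin library or day-0 replicate 2 (adjusted p = 0.0503 to 0.0943), and the palbociclib call without any 1 palbociclib library or day-0 replicate 1 or 2 (0.0696 to 0.14). With alisertib it was -0.027, with a 95% interval of -0.21 to 0.16. In order of level, bleomycin, TVB-3166, ND-646, doxorubicin, and palbociclib neighbours overlapped, and palbociclib was above day-0 cells without overlap.

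BCL2L1 encodes BCL-xL, the target of several senolytic BH3 mimetics. It was at 109, 105, and 87.5 CPM in day-0 cells, 87.0, 71.5, and 66.6 CPM in day-7 cells, 111, 85.6, and 93.0 CPM with ND-646, and 106, 97.0, and 96.9 CPM with TVB-3166. Its level was lower in day-7 than in day-0 cells without overlap, although the difference did not pass (-0.41, adjusted p = 0.103). The call for BCL2L1 therefore depends on the reference. Against day-0 cells it fell with doxorubicin (-0.33, adjusted p = 0.0282) and alisertib (-0.49, 0.00619) and was at -0.0028 with TVB-3166 (95% interval -0.23 to 0.23). Against day-7 cells it rose with TVB-3166 (0.42, adjusted p = 0.00530) and was called lower in no group, with alisertib at -0.052. With bleomycin against day-7 cells it was 0.29 (adjusted p = 0.0632), and 0.30 (0.0191) with the replicate number as a block. The doxorubicin call against day-0 cells was lost without doxorubicin replicate 1 or 3 or day-0 replicate 1 or 2 (adjusted p = 0.0534, 0.118, 0.0585, and 0.0845). Against day-7 cells without day-7 replicate 1, bleomycin (0.41, adjusted p = 0.0158) and palbociclib (0.33, 0.0152) passed, and against day-0 cells without day-0 replicate 3 palbociclib did (-0.32, 0.0194). Each group in the order of BCL2L1 levels, from day-0 at 101 to alisertib at 71.7 CPM, overlapped with the next. Counts per gene do not separate the long and short splice forms of BCL2L1 or MCL1, and the opposite-strand RNA ABALON covers 41.3% of the exon bases of BCL2L1. Whether counting used strand is not given in the sources used here.

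BCL2L2, which encodes BCL-w, was lowest in day-0 cells, at 25.5, 27.4, and 32.5 CPM. It was at 41.7, 41.7, and 45.4 CPM with ND-646, 38.4, 50.5, and 50.6 CPM with TVB-3166, and 40.4, 46.8, and 44.2 CPM with bleomycin, all above the highest day-0 library. It rose against day-0 cells in these 3 groups (0.58, 0.71, and 0.63, adjusted p = 0.0158, 0.000993, and 0.00313) and with palbociclib (0.29, 0.0464). Against day-7 cells it rose in the same 3 groups (0.39, 0.52, and 0.44). With doxorubicin the values were 0.18 against day-0 and 8.9e-05 against day-7 cells. The BCL2L2 call with ND-646 against day-0 cells was lost without ND-646 replicate 3 or day-0 replicate 1 or 2 (adjusted p = 0.0601 to 0.0752), that against day-7 cells without ND-646 replicate 2 or 3 or any 1 day-7 library (0.0879 to 0.176), and that with palbociclib without any 1 palbociclib library or day-0 replicate 1 or 2 (0.0956 to 0.107). Alisertib was at 0.38 against day-0 cells (adjusted p = 0.0524) and passed in 9 of 14 alternative settings, among them DESeq2 (0.0237), all 24 libraries in 1 fit (0.0218), and the fits without alisertib replicate 1 (0.51, 0.0173) or day-0 replicate 3 (0.49, 0.0284). Of the exon bases of BCL2L2, 16.8% are shared with the readthrough gene BCL2L2-PABPN1, whose reads cannot be told apart here.

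The effectors differed from each other. BAX (chr19:49458072-49465055, plus strand) had group means of 10.8 to 13.6 CPM. It had 0 calls in edgeR in the 14 comparisons with untreated cells or between FASTIS groups, where it also reached neither a raw p under 0.05 nor a call in DESeq2, and 0 in the 14 other pairs of TIS groups, where it passed in 1 setting each for 4 pairs (without ND-646 replicate 2, 0.41 for ND-646 against palbociclib, adjusted p = 0.0410; without ND-646 replicate 1, -0.32 for TVB-3166 against bleomycin, 0.0408; and with library totals alone for TVB-3166 against alisertib and doxorubicin). The library farthest from the rest was ND-646 replicate 1, at 17.6 CPM against 11 and 11.9 CPM in replicates 2 and 3. The 95% interval of BAX against day-0 cells was -0.47 to 0.19 with TVB-3166 and -0.36 to 0.66 with ND-646 on the log2 scale. BAK1 (chr6:33540324-33548070, minus strand), the partner that sits in the mitochondrial membrane, was at 109, 119, and 103 CPM in day-0 cells, 106, 93.1, and 104 CPM in day-7 cells, and 68.4, 78.7, and 64.6 CPM with doxorubicin, where it was lowest. All 18 TIS libraries were below all 3 day-0 libraries. BAK1 fell against day-0 cells in 5 TIS groups, between -0.42 with TVB-3166 and -0.64 with doxorubicin (adjusted p = 0.00282 and 0.000741), and in the same 5 against day-7 cells (-0.29 to -0.49). With ND-646 it was -0.33 (adjusted p = 0.0976), and without replicate 1 it was -0.41 (adjusted p = 0.0108). Against day-7 cells ND-646 passed in BAK1 without replicate 1 (-0.28, 0.0251). Against day-7 cells the BAK1 call was lost with bleomycin without bleomycin replicate 2 or 3 or day-7 replicate 1 or 3 (adjusted p = 0.0587 to 0.0976), with palbociclib without palbociclib replicate 3 or day-7 replicate 3 (0.0573 and 0.0656), and with alisertib without alisertib replicate 2 or 3 or day-7 replicate 3 (0.0674 to 0.0793). Of the 14 TIS pairs, only ND-646 against doxorubicin was called in BAK1 (0.33 ± 0.10, adjusted p = 0.00847), and this call was lost in 5 of 32 settings: without ND-646 replicate 1 (0.23, 0.0586), without doxorubicin replicate 3 (0.27, 0.0559), in DESeq2 (0.0924), with only both groups in the fit (0.121), and with library totals alone (0.085, 0.446). TVB-3166 against doxorubicin passed in BAK1 without doxorubicin replicate 2 (0.31, 0.0331) or ND-646 replicate 1 (0.22, 0.0433).

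BBC3 (chr19:47724079-47736023, minus strand) was at 1.86, 2.84, and 2.84 CPM in day-0 cells and 4.37, 4.78, and 3.92 CPM in day-7 cells. It was at 29.2, 16.1, and 19.9 CPM with ND-646 and 17.4, 13.5, and 20.1 CPM with TVB-3166. The 6 FASTIS libraries were above the other 18, and the ranges of the FASTIS groups overlapped. The log2 fold-change against day-0 cells was 3.10 ± 0.28 with ND-646, and 2.84 without replicate 1, and 2.77 ± 0.21 with TVB-3166. Bleomycin followed, at 8.30, 12, and 7.93 CPM and a log2 fold-change of 1.91 ± 0.26 (adjusted p = 0.000340). Doxorubicin, palbociclib, and alisertib TIS cells, with means of 5.64, 4.94, and 5.43 CPM, were also above day-0 cells (1.18, 0.97, and 1.12, adjusted p = 0.00155, 0.00409, and 0.00473).

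The reference mattered for the lower 3 groups. Day-7 cells were themselves above day-0 cells in BBC3 without overlap (0.81, adjusted p = 0.0900). Against day-7 cells BBC3 rose with ND-646 (2.30 ± 0.24, adjusted p = 0.000286), TVB-3166 (1.97 ± 0.17, 4.92e-06), and bleomycin (1.12 ± 0.20, 0.00225), and was at 0.40, 0.19, and 0.34 with doxorubicin, palbociclib, and alisertib, which did not pass (adjusted p = 0.0701, 0.399, and 0.210). BBC3 was higher in each FASTIS group than in each of the other 4 TIS groups in the fit of all 24 libraries. The differences ran from 0.85 ± 0.22 for TVB-3166 over bleomycin (adjusted p = 0.00502) to 2.14 ± 0.23 for ND-646 over palbociclib (adjusted p = 2.61e-07). In the order of BBC3 levels, ND-646 and TVB-3166 overlapped, TVB-3166 was above bleomycin, bleomycin was above doxorubicin (0.74 ± 0.22, adjusted p = 0.0270), and doxorubicin, alisertib, palbociclib, and day-7 cells overlapped as neighbours. The BBC3 call of bleomycin over doxorubicin was lost without bleomycin replicate 2 (0.52, adjusted p = 0.203), doxorubicin replicate 2 (0.69, 0.0767), or doxorubicin replicate 3 (0.70, 0.0986) and with library totals alone (0.0542). Between TVB-3166 and ND-646 the difference was -0.34 with a 95% interval of -0.90 to 0.22 (adjusted p = 0.562).

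BMF (chr15:40380091-40401093, minus strand) was at 11.4, 18.4, and 19.6 CPM in day-0 cells and 18.0, 32.7, and 27.5 CPM in day-7 cells. It was at 85.8, 174, and 161 CPM with bleomycin, 91.3, 130.2, and 119 CPM with palbociclib, and 91.5, 86, and 104 CPM with doxorubicin. The FASTIS groups were at 67.6, 109.7, and 95.6 CPM with ND-646 and 55.6, 72.6, and 63.9 CPM with TVB-3166. The lowest of these 15 TIS libraries, at 55.6 CPM, was above the highest untreated library, at 32.7 CPM. With alisertib BMF was at 19.8, 25.2, and 23.2 CPM, within the range of day-7 cells. Log2 fold-changes against day-0 cells were 3.10 ± 0.29 with bleomycin, 2.79 ± 0.20 with palbociclib, 2.53 ± 0.19 with doxorubicin, 2.46 ± 0.26 with ND-646, and 1.97 ± 0.18 with TVB-3166, with adjusted p-values between 3.65e-06 and 0.000198. With alisertib the value was 0.47 (adjusted p = 0.0734), without overlap of the libraries, and it passed in 3 of 14 alternative settings: DESeq2 (0.47, 0.0292), the replicate block (0.49, 0.00548), and without day-0 replicate 3 (0.62, 0.0401).

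The 5 groups also exceeded day-7 cells in BMF, by 1.30 with TVB-3166 to 2.45 with bleomycin (adjusted p = 0.000139 and 0.000288). Each of the 5 was above alisertib in the fit of all libraries, by 1.49 ± 0.25 (TVB-3166) to 2.63 ± 0.26 (bleomycin). TVB-3166 was below bleomycin (-1.13 ± 0.25, adjusted p = 0.00136) and palbociclib (-0.83 ± 0.24, 0.0128), the latter lost without palbociclib replicate 2 (-0.72, 0.0547) or TVB-3166 replicate 1 (-0.74, 0.0614). The difference between TVB-3166 and ND-646, -0.50, did not pass (adjusted p = 0.290), although without ND-646 replicate 1 it was -0.67 with an adjusted p of 0.00605. By group means BMF thus differed from BBC3 in its order: BBC3 was highest with ND-646 and TVB-3166, and BMF was highest with bleomycin and palbociclib. In the fit of all libraries, BMF with ND-646 did not pass against palbociclib (adjusted p = 0.296) or doxorubicin (0.897). Nor did it pass against bleomycin (0.0533), although it did in 9 of 32 settings. BMF-AS1, on the opposite strand, covers 8.46% of the exon bases of BMF.

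PMAIP1 (chr18:57567228-57571537, plus strand) had few reads, at 1.5, 2.56, and 2.75 CPM in day-0 cells and 2.54, 4.29, and 3.86 CPM in day-7 cells. It was at 8.40, 13.2, and 11.4 CPM with bleomycin, 7.99, 7.24, and 11.3 CPM with doxorubicin, and 5.70, 8.68, and 7.72 CPM with ND-646, above every untreated library. It was at 3.95, 6.26, and 4.55 CPM with TVB-3166, 3.65, 4.79, and 4.63 CPM with palbociclib, and 4.46, 5.19, and 5.36 CPM with alisertib, above every day-0 library. PMAIP1 rose against day-0 cells in all 6 groups, from 0.94 ± 0.26 with palbociclib (adjusted p = 0.00995) to 2.29 ± 0.28 with bleomycin (adjusted p = 0.000206). Against day-7 cells it rose with bleomycin (1.65, adjusted p = 0.000843), doxorubicin (1.34, 0.000523), and ND-646 (1.05, 0.0172). The ND-646 call against day-7 cells was lost without ND-646 replicate 2 or day-7 replicate 1 or 3 (adjusted p = 0.0601, 0.0653, and 0.0561). With alisertib against day-7 cells it was 0.52 (adjusted p = 0.103), and 0.53 (0.0332) with the replicate number as a block. TVB-3166 TIS cells had less PMAIP1 than bleomycin (-1.16 ± 0.25, adjusted p = 0.00130) and doxorubicin TIS cells (-0.84 ± 0.25, 0.0118), the latter lost without doxorubicin replicate 3 (-0.63, 0.0883) or TVB-3166 replicate 1 (-0.71, 0.0640). No neighbours in the order of PMAIP1 levels passed in the fit of all 24 libraries, although ND-646 and alisertib did not overlap (adjusted p = 0.0754). This pair passed in 3 of 32 settings: without ND-646 replicate 1 (0.71, 0.0327), in DESeq2 (0.0415), and with the replicate block (0.0127). With ND-646 PMAIP1 was called higher than with palbociclib (adjusted p = 0.0183), which held in 29 of 32 settings. It did not pass between ND-646 and doxorubicin (0.406) or bleomycin (0.0778), although against bleomycin it did in 2 of 32 settings. PMAIP1 was also called higher with both DNA-damaging drugs than with palbociclib and with alisertib. The bleomycin calls held in all 32 settings. Doxorubicin against palbociclib was lost without doxorubicin replicate 3 (0.81, adjusted p = 0.0606), and doxorubicin against alisertib in 6 settings, namely library totals alone (0.0624) and the fits without any 1 alisertib library (0.0693 to 0.102), doxorubicin replicate 1 (0.89, 0.0505), or doxorubicin replicate 3 (0.60, 0.192).

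BIK (chr22:43506756-43525718, plus strand) separated the FASTIS groups from the rest. It was at 16.8, 16.2, and 14.2 CPM with TVB-3166 and 10.9, 10.4, and 10.7 CPM with ND-646, against 4.35, 4.35, and 4.5 CPM in day-0 cells and 6.26, 5.21, and 6.09 CPM in day-7 cells. The highest library outside the FASTIS groups was alisertib replicate 1, at 7.01 CPM. BIK rose 3.58-fold with TVB-3166 (log2 fold-change 1.84 ± 0.14, adjusted p = 2.29e-06) and 2.40-fold with ND-646 (1.26 ± 0.18, 0.000811) over day-0 cells, and also over day-7 cells (1.42 and 0.85). With bleomycin and palbociclib it was at 3.6, 4.12, and 5.43 and at 4.64, 4.22, and 4.43 CPM, with 95% intervals against day-0 cells of -0.48 to 0.48 and -0.36 to 0.38. Alisertib was above day-0 cells (0.52, adjusted p = 0.0270) and differed from day-7 cells by 0.12 (0.600), and the call against day-0 cells was lost without alisertib replicate 1 or 3 or day-0 replicate 2 (adjusted p = 0.0873, 0.0939, and 0.0632). Against day-7 cells BIK was at -0.41 with bleomycin and -0.40 with palbociclib, and passed as lower with bleomycin without bleomycin replicate 3 (-0.59, adjusted p = 0.0498) and with palbociclib without day-7 replicate 2 (-0.47, 0.0445).

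Every TVB-3166 library was above every ND-646 library in BIK. In the fit of these 2 groups alone the difference was 0.57 ± 0.14 with an adjusted p of 0.104, whereas it passed in the fit of all 24 libraries (adjusted p = 0.0197) and in DESeq2 (0.00806), and without ND-646 replicate 1 (0.019). Both FASTIS groups were above each of the other 4 TIS groups in BIK, by 0.75 ± 0.15 (ND-646 over alisertib, adjusted p = 0.000358) to 1.84 ± 0.15 (TVB-3166 over bleomycin, 2.07e-08).

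BID (chr22:18216904-18257536, minus strand) moved in the other direction. It was at 40.0, 35.8, and 35 CPM in day-0 cells and 38.5, 29.6, and 34.6 CPM in day-7 cells, against 19.4, 21.2, and 16.5 CPM with ND-646 and 20.6, 18.8, and 17.7 CPM with TVB-3166. All FASTIS libraries were below all libraries of untreated, doxorubicin, palbociclib, and alisertib cells. BID fell with ND-646 (-0.97 ± 0.16, adjusted p = 0.00165), TVB-3166 (-0.95 ± 0.11, 3.51e-05), bleomycin (-0.65 ± 0.12, 0.00231), and alisertib (-0.52 ± 0.093, 0.00223) against day-0 cells, and in the same 4 groups against day-7 cells (-0.39 to -0.86). The alisertib call against day-7 cells was lost without alisertib replicate 2 or 3 or day-7 replicate 1 or 3 (adjusted p = 0.058 to 0.089). With palbociclib and doxorubicin it was at 37.2, 33.8, and 30.0 and at 31.9, 33.1, and 31.5 CPM, and neither passed against either reference. The FASTIS groups were below doxorubicin, palbociclib, and alisertib in BID, for example by -0.82 ± 0.12 for ND-646 against palbociclib (adjusted p = 1.00e-05). TVB-3166 and ND-646 differed by 0.011 (95% interval -0.33 to 0.35).

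**Figure D2:**
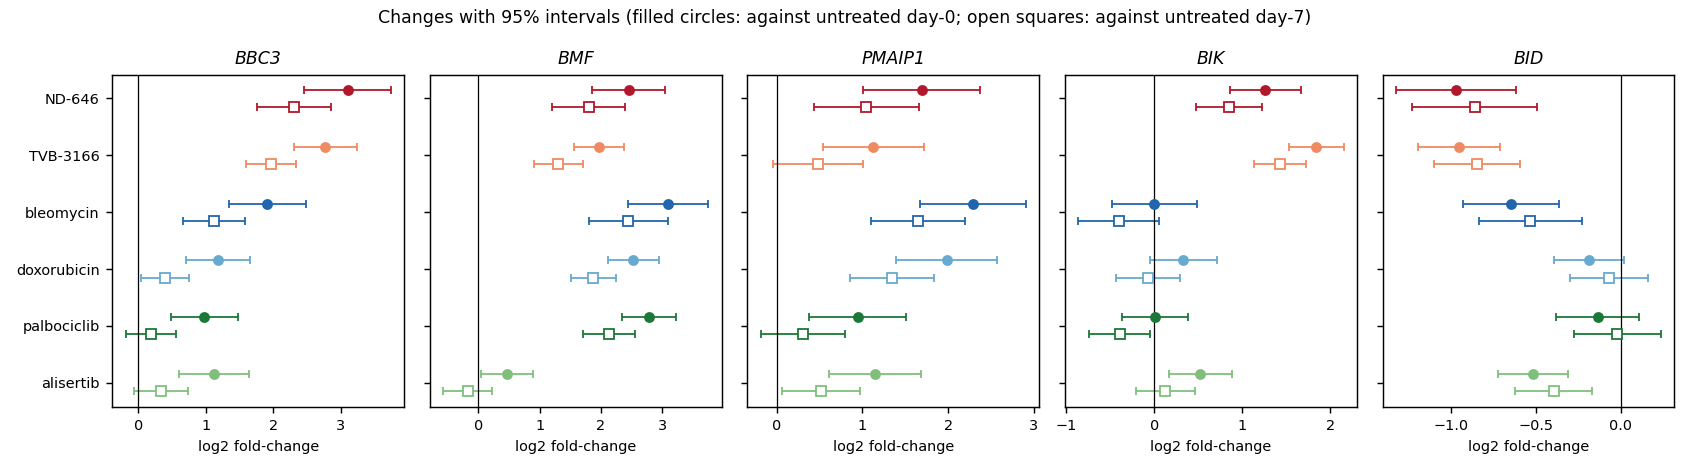
Log2 fold-change and 95% interval of the 5 BH3-only genes in the 6 TIS groups, with filled circles against day-0 cells and open squares against day-7 cells and a line at 0. The squares of BBC3, BMF, PMAIP1, and BIK lie to the left of the circles because day-7 cells had higher mean levels than day-0 cells. BIK is far from 0 only with ND-646 (1.26 against day-0 cells) and TVB-3166 (1.84 against day-0 cells), and both values are smaller against day-7 cells.

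Counted over the 10 genes at an adjusted p under 0.05, ND-646 against day-0 cells gave 5 higher and 1 lower, where 19.1% and 18.8% of all tested genes were higher and lower (37.9% called). TVB-3166 gave 6 higher and 2 lower (background 27.4% and 27.7%, 55.1% called). Bleomycin gave 5 and 2 (24.1% and 25.3%, 49.4% called), and doxorubicin gave 4 and 2 (23.7% and 24.8%, 48.4% called). Palbociclib gave 5 and 1 (26% and 27.2%, 53.2% called), and alisertib gave 3 and 3 (17.7% and 19.6%, 37.3% called). With calls this common among all genes, the number of genes called is no result about the family. By size, 4 of 10 rose at least 2-fold at a raw p under 0.05 in each FASTIS group, where 11.4% (ND-646) and 10.9% (TVB-3166) of all genes did. With bleomycin and doxorubicin 3 of 10 did (11.5% and 10%), with alisertib 2 (6.47%), and with palbociclib 1 (10.5%). None of the 10 fell 2-fold in any comparison, whereas 9.29% (ND-646), 6.75% (TVB-3166), 7.3% (bleomycin), 2.9% (doxorubicin), 6.15% (palbociclib), and 1.44% (alisertib) of all genes did so against day-0 cells. With library totals as the only scaling, the share of called genes that were higher went from 50.5% to 39% (ND-646), 48.9% to 61% (doxorubicin), 48.9% to 61.9% (palbociclib), and 47.5% to 69.6% (alisertib, 58.6% with upper-quartile scaling), and no member changed direction where it was called. Libraries of the TIS group and day-0 cells did not overlap for 8 of 10 genes with ND-646 (51.8% of all genes), 8 with TVB-3166 (62.6%), 7 with bleomycin (59.5%), 8 with doxorubicin (58.5%), 6 with palbociclib (62.2%), and 7 with alisertib (50.6%).

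Against day-7 cells ND-646 gave 5 higher and 1 lower (17.2% and 17.1% of all genes, 34.2% called), TVB-3166 gave 6 and 2 (25.4% and 26.1%, 51.5%), and bleomycin gave 5 and 2 (22.4% and 23.2%, 45.6%). Doxorubicin gave 3 and 1 (21.9% and 21.5%, 43.4%), and palbociclib gave 2 and 1 (22% and 22.9%, 44.8%). Alisertib gave 0 higher and 2 lower in edgeR (9.55% and 9.49%, 19%), with 3 genes at a raw p under 0.05 (34.5% of all genes) and 2 calls in DESeq2 (22%). At least 2-fold higher than day-7 cells at a raw p under 0.05 were 3 of 10 with ND-646 (8.74% of all genes), 3 with TVB-3166 (7.24%), 3 with bleomycin (8.49%), 2 with doxorubicin (7%), 1 with palbociclib (6.51%), and 0 with alisertib (2.54%), and 0 of 10 were 2-fold lower (0.732% of all genes with alisertib to 8.62% with ND-646). With library totals alone, the share of called genes that were higher went from 50.2% to 29.4% (ND-646), 49.3% to 38.5% (TVB-3166), and 49.1% to 34.4% (bleomycin). Libraries did not overlap with day-7 cells for 7 genes with ND-646 (50.8%), 8 with TVB-3166 (59.5%), 9 with bleomycin (57%), 6 with doxorubicin (54%), 4 with palbociclib (54.7%), and 4 with alisertib (37.8%). The comparisons within each reference share the 3 untreated libraries and are not independent of each other.

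Untreated day-7 against day-0 cells gave 0 calls among the 10 genes in edgeR, where 0.587% of all genes were called. At a raw p under 0.05 there were 5 (23.9% of all genes), and DESeq2 called 3 (8.21% of all genes), which were BCL2L1, BMF, and BBC3. No gene of the 10 moved 2-fold (1.66% of all genes were higher and 0.33% lower), and 3 did not overlap (29.7%). With library totals alone, 87.5% of called genes were higher, against 66.2%. TVB-3166 against ND-646 gave 0 calls in edgeR (0.717% of all genes), with 3 genes at a raw p under 0.05 (15.1% of all genes) and 1 call in DESeq2 (5.58%), which was BIK. Of all called genes there, 72.4% were higher with TVB-3166, and 89.7% with library totals alone. Over the other 14 pairs of TIS groups, 59 of 140 gene-by-pair combinations were called, against 29.4% over all genes. Of the 14 pairs, BBC3 differed in 11, BIK in 10, BID in 9, BMF and PMAIP1 in 7 each, BCL2L2 and MCL1 in 5 each, BCL2L1 in 4, BAK1 in 1, and BAX in 0. The range of the 8 group means on the log2 scale placed BBC3 at the 97.3th, BMF at the 97.2th, PMAIP1 at the 91.9th, and BIK at the 86.3th percentile of all tested genes, and MCL1, BCL2L1, and BAX at the 19.4th, 16th, and 4.51th.

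Counts of the 3 lists that follow stand beside the shares of all genes called against day-0 cells, which were 37.9% with ND-646, 55.1% with TVB-3166, 49.4% with bleomycin, 48.4% with doxorubicin, 53.2% with palbociclib, and 37.3% with alisertib, about equally higher and lower. Of 17 other BCL-2 family genes, 12 were in the table. In ND-646 TIS cells 3 rose and 3 fell against day-0 cells (median log2 fold-change 0.22, over all genes 0.018), and with TVB-3166 4 rose and 3 fell (-0.062 against -0.0071). With bleomycin 4 rose and 4 fell, with doxorubicin 4 and 5, with palbociclib 3 and 5, and with alisertib 2 and 2. The mitophagy receptor BNIP3L rose with ND-646 (1.11, adjusted p = 0.00259), and MOAP1, which binds BAX, rose with TVB-3166 (0.99, 1.23e-05). MOAP1 also rose with palbociclib (1.10, 1.08e-05) and alisertib (0.59, 0.00207). BCL2 itself was scarce, at 1.83 CPM in day-0 cells, and fell with ND-646 (-1.10, adjusted p = 0.0434), a call lost without ND-646 replicate 1 (-0.997, 0.0536). It also fell against day-0 cells with palbociclib (-0.96, 0.0328). Against day-7 cells BCL2 fell with ND-646 (-1.50, 0.0140), TVB-3166 (-1.30, 0.00678), and palbociclib (-1.36, 0.00612). Without ND-646 replicate 1 the ND-646 call against day-7 cells held (-1.40, 0.00921). Its means in these 3 groups were 0.855, 0.981, and 0.934 CPM. BAG1, a chaperone cofactor that binds BCL-2, fell against day-0 cells with bleomycin (-1.31, adjusted p = 4.33e-05), and also with doxorubicin (-0.70, 0.000225) and alisertib (-0.51, 0.00263).

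Of 19 genes that act after the outer membrane opens, 3 rose and 7 fell with ND-646 and 4 rose and 8 fell with TVB-3166 against day-0 cells (medians -0.15 and -0.082), where 19.1% and 18.8% of all genes rose and fell with ND-646 and 27.4% and 27.7% with TVB-3166. The other 4 TIS groups had 2 to 5 that rose and 6 to 8 that fell. BIRC3, an inhibitor of apoptosis induced by NF-kB, rose from 2.37 ± 0.145 (SD) CPM to 20.5 ± 3.47 CPM with ND-646 and 13.7 ± 1.27 CPM with TVB-3166 (3.10 and 2.53, adjusted p = 2.21e-05 and 7.62e-07), and was highest with bleomycin (32.3 ± 6.06 CPM). BIRC5 (survivin), which is expressed in dividing cells, fell from 126 CPM to 15.8 and 29.9 CPM in the FASTIS groups (-3.02 and -2.07). It was also called lower with bleomycin (29.4 CPM), palbociclib (31.4 CPM), and doxorubicin (52.8 CPM). Of 17 regulators of the family in the table, 5 rose and 2 fell with ND-646 and 7 rose and 3 fell with TVB-3166 (medians 0.078 and 0.061), and in the other 4 TIS groups 3 to 8 rose and 1 or 2 fell. DDIT3 (CHOP), a transcription factor of the integrated stress response, was at 3.18, 4.28, and 5.23 CPM in day-0 cells, 61.6, 49.7, and 45.6 CPM with ND-646, and 30.6, 48.2, and 39.3 CPM with TVB-3166 (3.61 and 3.23, adjusted p = 1.67e-05 and 8.30e-07). It also rose in the other 4 TIS groups (1.70 to 2.86), and its mean in day-7 cells was 9.21 CPM (1.13 against day-0 cells, adjusted p = 0.0596). ATF4, which acts upstream of DDIT3, rose by 1.75 and 1.33 on the log2 scale with ND-646 and TVB-3166, JUN by 1.22 and 1.01, and the CDK inhibitor CDKN1A by 1.82 and 1.41, whereas E2F1 fell (-2.31 and -1.81). JUN also rose against day-0 cells with doxorubicin (1.40) and alisertib (1.39), and E2F1 also fell with bleomycin (-1.85) and palbociclib (-1.85). ATF4 was the regulator called in untreated day-7 against day-0 cells (0.65, adjusted p = 0.0488), and against day-7 cells it was higher by 1.11 with ND-646 and 0.69 with TVB-3166 (adjusted p = 0.00893 and 0.000205). Without ND-646 replicate 1, an alternative added after the data were seen, the ND-646 values against day-0 cells were 1.42 for ATF4, 1.18 for JUN, 1.36 for CDKN1A, 3.49 for DDIT3, and -2.24 for E2F1, all still called.

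The genes whose log2 CPM followed each member most closely over the 24 libraries were found among all tested genes, as a description. The 24 points share 8 treatments, so these correlations mostly follow group means. BBC3 ran with PRSS8 and LOC388242 (both r = 0.967), BMF with CD22 (0.963) and GBP3 (0.96), and PMAIP1 with RASSF3 (0.947). BIK ran with IDI1 (0.931), an isoprenoid enzyme, and STARD4 (0.923), a sterol carrier. BID ran with the RNase component POP1 (0.939) and RPL7L1 (0.935), BAK1 with ELK1 (0.933) and PFKL (0.924), MCL1 with RAP2A (0.929) and GAREM1 (0.928), and BCL2L2 with ARFGAP3 (0.926) and MOSPD2 (0.919). BCL2L1 (JUP, 0.874, and MTMR14, 0.871) and BAX (LRRC42, 0.756, and TICAM1, 0.752) had no gene as close. Among the 10 genes the closest pairs were BBC3 with BID (r = -0.911), BCL2L2 with BID (-0.881), and MCL1 with BMF (0.866) over the same 24 libraries.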

How the data were processed

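Per the labels and the paper, RNA from SKBr3 cells was sequenced as paired-end reads in 8 groups of 3 libraries; the labels name an mRNA kit and the methods a total RNA kit, both stranded. The submitters' processing notes name bcl2fastq, HISAT2, StringTie, DESeq2, and GRCh37, and the authors deposited a table of raw, unscaled integer counts for each gene. The lowest count in the table is 1, so genes without reads in a library are not in it. No column of per-library values was left unmapped (0 columns).

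Counts were tested in R 4.3.3 with edgeR 4.0.16 (limma 3.58.1), by the 2-sided quasi-likelihood test on genes kept by filterByExpr and scaled by TMM, each of 14 fits holding the 2 groups compared. The other 14 TIS pairs were contrasts in 1 fit of 24 libraries. Adjusted p-values are Benjamini-Hochberg values over all genes tested, called under 0.05, and a second rule was a fold-change of at least 2 with a raw p under 0.05. An exact permutation test of 3 against 3 cannot go below 0.1. CPM values are TMM-scaled, log2 CPM used a prior count of 2, and intervals are at 95%. Total counts were 29405121 to 44316330 per library and the lowest count of a member was 59, so counting error is largest for PMAIP1, BBC3, and BIK. Exon lengths and positions are from GENCODE lifted to GRCh37, promoters from RefSeq.

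Neither labels nor paper tie a replicate number to a batch. Same-numbered libraries deviated together, with all 3 correlations over 0.1, for bleomycin and alisertib against day-7 cells (0.107 to 0.142 and 0.105 to 0.218) and TVB-3166 against ND-646 (0.213 to 0.380). The main fits of these 3 comparisons were not paired. For these 3 comparisons, calls that changed with the replicate number as a block are given with the gene. For other comparisons they are not all named. With the block, ND-646 against day-7 cells went from 6 to 5 calls (34.2% to 34.4% of all genes). TVB-3166 against day-7 cells went from 8 to 9 (51.5% to 56.6%).

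The members and lists were chosen with earlier results of these data known. All 10 members are named, as are list genes called at 2-fold in both FASTIS groups or among the 2 largest called changes of their list in a comparison, of which a selection is printed, and the 2 genes most correlated with each member, except that for PMAIP1 only 1 is reported here. Alternatives were DESeq2 1.42.0, RLE, upper-quartile, and total-count scaling, leaving low counts in, a stricter minimum of 10 counts per library throughout, a single fit of the series, the replicate block, and leaving out each library. Named list genes were also fitted without ND-646 replicate 1, which was chosen after the data were seen. The scripts were tested on simulated data. Protein sequences and BH3 profiling were not analysed here.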

Additional observations from a re-analysis of the deposited data

Results flagged for a closer look

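No gene of the 10 was called in opposite directions in 2 TIS groups against day-0 cells (0 genes). For 9 of them, the difference between 2 TIS groups was itself called in the fit of all 24 libraries by edgeR's quasi-likelihood test, and the largest called difference of each is given on the log2 scale. As these are the largest of 15 pairs, their size is a description. BIK was higher by 1.84 with TVB-3166 than with bleomycin (adjusted p = 2.07e-08). BMF was higher by 2.63 with bleomycin than with alisertib (1.53e-07), and BBC3 by 2.14 with ND-646 than with palbociclib (2.61e-07). BID was -0.82 with ND-646 relative to palbociclib (1.00e-05). PMAIP1 was higher by 1.34 with bleomycin than with palbociclib (0.000371), and MCL1 by 0.50 with bleomycin than with alisertib (0.000164). BCL2L2 was higher by 0.54 with TVB-3166 than with doxorubicin (0.00189), BCL2L1 by 0.48 with TVB-3166 than with alisertib (0.00354), and BAK1 by 0.33 with ND-646 than with doxorubicin (0.00847), the last lost in 5 of 32 settings.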

How the results depend on the processing

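Of 140 results for single genes, each under 14 settings, none reversed; 48 values newly passed and 57 no longer passed. Under the rule of a 2-fold change and raw p, the number of genes called against day-0 cells was 4 (8 by adjusted p) with TVB-3166, 3 (7) with bleomycin, 3 (6) with doxorubicin, 1 (6) with palbociclib, and 2 (6) with alisertib, and against day-7 cells 3 (6) with ND-646, 3 (8) with TVB-3166, 3 (7) with bleomycin, 2 (4) with doxorubicin, 1 (3) with palbociclib, and 0 (2) with alisertib; this rule drops genes that moved by less than 2-fold. For untreated day-7 against day-0 cells, 0 calls became 3 with DESeq2, 1 with all 24 libraries in 1 fit, and 3 with the replicate block, where the share of all genes called went from 0.587% to 8.21%, 3.13%, and 9.26%. With the replicate block, palbociclib against day-7 cells went from 3 to 5 calls (44.8% to 51.3% of all genes). Where the numbers pair libraries, the block changed only the calls given for BCL2L1 and PMAIP1. For TVB-3166 against ND-646, 0 calls became 1 with DESeq2 and 1 with all 24 libraries (0.717% to 5.58% and 9.01% of all genes). Leaving out 1 library gave 0 to 2 calls for alisertib against day-7 cells (0 when alisertib replicate 2, alisertib replicate 3, or day-7 replicate 3 was dropped, and 1 when day-7 replicate 1 was) and 0 to 2 for TVB-3166 against ND-646 (2 without ND-646 replicate 1). Between the 14 TIS pairs, 59 calls ranged from 47 (library totals alone) to 74 (replicate block). For the fits leaving out 1 library and for the TIS pairs, the share of all genes called under each setting is not given. Those shifts are therefore no result about the family. The cause of all these shifts was not tested. Library totals alone moved the median log2 fold-change of all genes by over 0.1 in 7 comparisons, most for ND-646 against day-7 cells (0.021 to -0.20) and alisertib against day-0 cells (-0.0059 to 0.13). Over the 14 comparisons the median SE was largest for PMAIP1, followed by BBC3 and BMF.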
